A study of Mus musculus with 30 samples.

Results

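Messenger RNA from whole brain of wild-type mice was compared between 24 months and 12 months of age. The comparison used the 10 wild-type columns of the deposited count table that carry these ages, 5 at each age, out of 30 columns in all. The other columns held wild type at 45 days and mice labelled Csa-/- at the same 3 ages. Csa is another name of Ercc8, a gene of transcription-coupled DNA repair. The wild-type mice were described as the counterparts of the mutants, with free access to food, a light and dark cycle, and an overdose of xylazine and ketamine at death. The labels gave all columns 1 batch number. Brains were frozen and pulverised whole, and RNA was selected for poly(A) tails. Strain, sex, the hour of death and the number of animals in a library were not stated in the sources used here.

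Within each age, the 5 columns differed by somewhat more than counting error. The chi-square of a gene's 5 counts per degree of freedom had a median of 0.995 and a mean of 1.25 at 12 months, and a median of 1.01 and a mean of 1.31 at 24 months. Counting error would by itself bring the mean to 1. They were treated as repeat runs and added up, giving 1 library of 19648751 counts at 12 months and 1 of 28723453 counts at 24 months. The spread between runs is technical, and no p-value can be given for the difference between 2 libraries. The 4th run at 24 months was shallow, with 2821708 counts against up to 6884322 in the others. Ercc8 did not tell the genotypes apart, with 11.3 to 13.5 CPM in the wild-type libraries and 13.0 to 13.8 CPM in those labelled Csa-/-, and the part of the gene that is mutated was not stated in the sources used here. Whether labels were exchanged between libraries was not tested, and every fold below rests on the labels as given.

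The ageing mammalian brain is known for a slow rise of glial and immune transcripts and for weaker expression of synaptic genes. Complement proteins tag material for removal by microglia, the resident macrophages. Class I and class II major histocompatibility proteins present peptides to T cells, and interferon induces many of their genes. Immediate early genes are transcribed within minutes of neuronal firing, largely through the factors CREB and SRF, and most encode short-lived transcription factors. The comparison asks which of these groups differed between old and middle-aged wild-type brain.

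A level is given in CPM, counts relative to the size of the library after TMM scaling, and a fold is the 24-month level divided by the 12-month level. Each fold has an exact 95% interval for counting error (Clopper-Pearson), which does not cover differences between animals or between preparations. A gene was called higher or lower when it reached 5 CPM in the higher library and its whole interval lay beyond 1.5-fold. Of 12436 genes at that level, 1047 were called higher (8.42%) and 1246 lower (10.0%). With scaling by library totals only, 1448 were higher and 768 lower, and the median log2 fold of all genes moved from -0.04 to 0.08. The share of calls that were higher thereby went from 45.7% to 65.3%. A group's share of calls is read against 8.42% and 10.0% below, and no share shows by itself that a group stands apart. A gene under 5 CPM at 1 age entered its list only through the other age. Such members lean a list's counts and median toward the age where they are high.

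Gene length moved with the fold across the whole table. Among the 10% of genes with the shortest exonic length (median 1480.5 bases), the median log2 fold was 0.62, and 38.2% were called higher against 1.22% lower. Among the longest 10% (median 13092 bases) it was -0.48, with 0.326% higher and 30.1% lower. In the libraries labelled Csa-/-, the same medians between 24 and 12 months were -0.14 and 0.09. Across genes, the wild-type log2 fold had a Pearson correlation of -0.53 with log2 length and 0.47 with GC content, given as a description over 12047 genes of the same libraries. When each library's smooth trend with length and GC content was removed, 454 of 12275 genes were called higher (3.70%) and 510 lower (4.15%), of which 322 and 314 had the same call before. In the paragraphs on gene groups that follow, the fold without this trend is given where it changed a named gene's call or differed by over 1.5 times. Whether RNA quality or another property of the 2 libraries produced the trend was not tested.

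**Figure D1:**
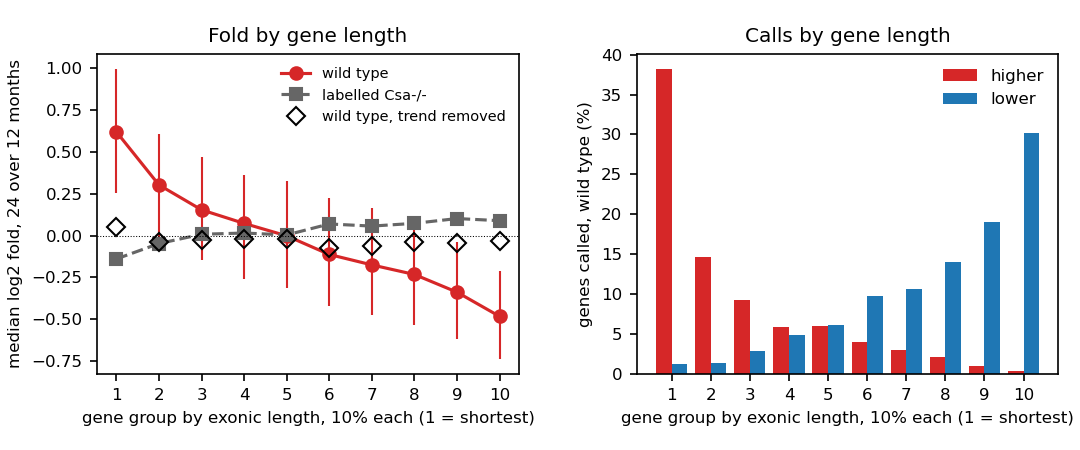
Wild-type fold and calls by gene length. The left panel plots the median log2 fold (24 over 12 months) in 10 equal groups of genes ordered by exonic length, with bars from the lower to the upper quartile, falling from 0.62 to -0.48 in wild type and running from -0.14 to 0.09 in the libraries labelled Csa-/-. The right panel plots the percentage of genes called higher or lower in wild type, from 38.2% higher in the shortest group to 30.1% lower in the longest.

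Most immediate early genes were called lower at 24 months. Of 24 genes listed, 20 reached 5 CPM, and 12 of these were called lower and none higher. Their median log2 fold was -0.88, against -0.04 over all genes, and 19 of the 20 lay below 1-fold. In RNA from a whole brain, fewer cells of a type and less RNA per cell cannot be told apart, here and below. With the length and GC trend removed, 13 were called lower and the median was -0.87. The list's count and median thus differed little with that step, although the members called were not all the same.

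Egr2, a zinc-finger transcription factor (chromosome 10, 67535475 to 67542188), stood at 13.9 CPM at 12 months and 4.04 CPM at 24 months. Its runs spanned 12.0 to 17.0 CPM at 12 months and 2.74 to 5.61 CPM at 24 months without overlap, and the fold of the summed libraries was 0.290 (95% counting interval 0.232 to 0.362). Dusp1 (chromosome 17, 26505590 to 26562128), a phosphatase that switches off MAP kinases, stood at 38.6 and 16.7 CPM, a fold of 0.432 (0.385 to 0.485). Both are induced by neuronal activity and by stress. Nr4a1 (chromosome 15, 101254269 to 101274795), an orphan nuclear receptor, had 141 CPM at 12 months against 66.0 CPM at 24 months (0.468-fold). Junb (chromosome 8, 84974484 to 84978718), a subunit of the AP-1 transcription factor, had 36.6 against 17.4 CPM (0.477-fold). The runs of these 4 genes did not overlap between the ages. Arc, which encodes a synaptic scaffold that carries RNA in capsids, stood at 183 and 95.3 CPM (0.521-fold), and Fos at 38.4 and 20.9 CPM (0.546-fold). Npas4 (0.545-fold), Nr4a2 (0.542-fold), Nr4a3 (0.496-fold), Egr1 (0.486-fold), Homer1 (0.491-fold) and Fosl2 (0.572-fold) were the other members called. Without the trend Homer1 was not called (0.756-fold). Fosb was the closest to no difference among the AP-1 genes named here, at 12.4 and 11.3 CPM (0.913-fold, 0.769 to 1.08).

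The 12-month library held the highest of the 3 wild-type levels for all 12 called genes. At 45 days Egr2 stood at 2.47 CPM, Nr4a1 at 39.3 CPM, Junb at 11.1 CPM and Dusp1 at 24.3 CPM. For 9 of the 12 the 45-day level was below that at 24 months, and for 3 it lay between the other two. In the libraries labelled Csa-/-, the list had a median log2 fold of 0.09 between the same ages, with Dusp1 called higher (2.07-fold) and Arc called lower (0.557-fold). Over all genes 1.95% were called higher and 3.25% lower in that comparison.

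**Figure D2:**
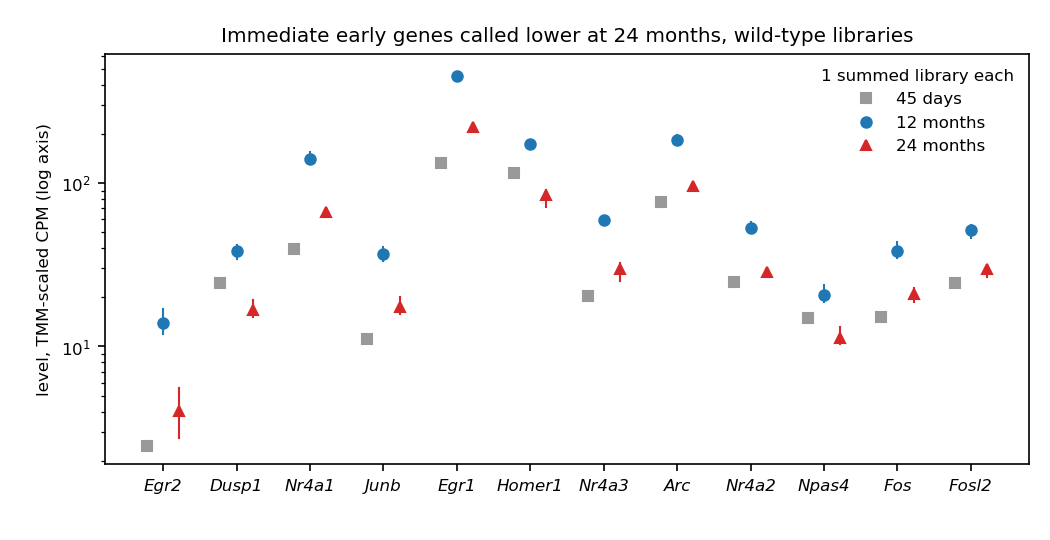
Levels of the 12 immediate early genes called lower at 24 months. Points are TMM-scaled CPM on a log axis in the wild-type libraries of 45 days, 12 months and 24 months, and bars span the 5 sequencing runs at 12 and 24 months. The 12-month point is the highest for every gene, as for Nr4a1 at 39.3, 141 and 66.0 CPM.

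The promoters of some of these genes are shown as background, since CREB is known to bind several of them. RefSeq (GRCm38.p6) gave a start for 10 of the 12 called genes, and 8 of these, each with a single start, were searched. The other two were not used here. The RefSeq starts of Dusp1 and Nr4a1 lie inside the gene spans given above, which came from GENCODE M21. The 250 bases before the start are printed 5′ to 3′ on the gene's strand for the 4 of these with the lowest folds. Capitals mark the cAMP response element TGACGTCA and its shorter form TGACG on either strand, where the reverse strand reads CGTCA and the full element holds the shorter form on both strands.
Dusp1 (chr17:26508473-26508722, minus strand): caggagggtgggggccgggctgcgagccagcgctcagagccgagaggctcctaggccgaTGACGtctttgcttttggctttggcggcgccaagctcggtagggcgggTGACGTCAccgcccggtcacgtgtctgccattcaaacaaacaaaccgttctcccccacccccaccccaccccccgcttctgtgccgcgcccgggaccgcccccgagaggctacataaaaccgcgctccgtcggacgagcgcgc
Nr4a1 (chr15:101266596-101266845, plus strand): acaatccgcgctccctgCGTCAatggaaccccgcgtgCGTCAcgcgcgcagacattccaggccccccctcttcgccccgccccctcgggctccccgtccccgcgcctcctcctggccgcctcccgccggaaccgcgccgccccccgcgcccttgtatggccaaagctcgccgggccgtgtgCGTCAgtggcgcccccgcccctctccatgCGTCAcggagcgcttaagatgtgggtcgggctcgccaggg
Junb (chr8:84978749-84978998, minus strand): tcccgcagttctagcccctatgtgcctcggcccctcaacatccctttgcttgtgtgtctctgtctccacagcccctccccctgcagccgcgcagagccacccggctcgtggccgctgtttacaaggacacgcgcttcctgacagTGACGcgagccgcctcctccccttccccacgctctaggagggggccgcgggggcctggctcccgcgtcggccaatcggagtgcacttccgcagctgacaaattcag
Nr4a3 (chr4:48045055-48045304, plus strand): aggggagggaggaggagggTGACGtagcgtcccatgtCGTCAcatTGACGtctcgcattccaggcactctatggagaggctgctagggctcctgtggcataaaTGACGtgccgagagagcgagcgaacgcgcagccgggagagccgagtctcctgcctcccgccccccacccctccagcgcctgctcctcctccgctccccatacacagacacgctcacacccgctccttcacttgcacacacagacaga
Dusp1 held 1 full element, from 143 to 136 bases before the start, and 3 matches of the short form, 2 of them inside the full element. Nr4a1 and Nr4a3 held 4 short matches each, and Junb held 1. Of these 8 genes, 7 held the short form and 1 the full element. Over all 32851 upstream windows of this length in the table, 17.8% held the short form and 1.55% the full element. Listed immediate early genes that were not called lower were not counted. These shares therefore cannot set the called genes apart from the rest of their list. The CArG box, the site of SRF, matched none of the 8 windows and 1.47% of all windows. The called genes Egr1, Egr2, Arc and Homer1 were not among the 8, and bases beyond 250 before the start were not searched. The absence of a match therefore does not show that the group lacks the site. A match is only a run of letters and does not show that a factor was bound.

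Some markers of the striatum and of the cortex were called lower at 24 months, and most were not called. Of 16 striatal markers at 5 CPM, 4 were called lower and none higher, with a median log2 fold of -0.60. With the length and GC trend removed, 9 were called lower and the median was -0.82. Pde10a (chromosome 17, 8525372 to 8986648), a phosphodiesterase of medium spiny neurons, stood at 382 CPM at 12 months and 121 CPM at 24 months, a fold of 0.318 (95% counting interval 0.305 to 0.331). The dopamine receptor gene Drd1 had 87.7 and 36.3 CPM (0.414-fold), and Gnal, the G protein it couples to, 335 and 151 CPM (0.451-fold). Runs did not overlap between ages for these genes. Drd2 (0.691-fold), Adora2a (0.614-fold) and Penk (0.835-fold), genes of indirect-pathway neurons, were not called, and Ppp1r1b, which encodes DARPP-32, had 202 and 197 CPM (0.975-fold). With the trend removed, Drd2, Adora2a and Penk were called lower (0.517, 0.475 and 0.543-fold).

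Of 17 markers of cortex and hippocampus, 5 were called lower and none higher, with a median log2 fold of -0.42. Mef2c, a transcription factor of excitatory neurons, had 506 and 216 CPM (0.427-fold), and Tbr1 97.1 and 52.3 CPM (0.538-fold). Prox1, a factor of dentate granule cells, had a fold of 0.514 (0.620 without the trend, where it was not called). Without the length and GC trend 3 were called lower, Tbr1 among them (0.501-fold), and 1 higher, while Mef2c (0.661-fold) was not called. Cerebellar markers had 4 of 17 called higher and 1 lower (median 0.29), while their summed level was 2454 CPM at 12 months and 2297 CPM at 24 months. Without the trend 1 was called higher, Pvalb, and none lower (median 0.29). Pvalb, a calcium buffer of fast-spiking and Purkinje neurons, had 69.2 and 174 CPM (2.51-fold, and 1.64-fold without the trend). The striatal and cortical markers had medians below that of all genes, as had the neuronal groups described next, while the cerebellar median lay above it. The part of regional markers in those results was not tested.

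Genes of neurotransmission, many of them long, held more calls of lower than of higher at 24 months, and most members of each list were not called. Glutamatergic genes had 11 of 28 called lower and none higher, with a median log2 fold of -0.52. Grm5, a metabotropic glutamate receptor, stood at 280.5 CPM at 12 months and 117 CPM at 24 months (0.417-fold, 0.399 to 0.435), and the NMDA receptor subunit gene Grin2b at 807 and 437 CPM (0.541-fold). With the trend removed, 4 of the 28 were called, Grm5 among them (0.553-fold), and Grin2b was not (0.755-fold). GABAergic genes had 10 of 23 called lower and 1 higher, Pvalb, with a median of -0.42. Gad1 and Gad2, which encode the enzymes that make GABA, were called lower (0.607 and 0.519-fold). Without the trend Gad2 was called (0.624-fold) and Gad1 was not (0.694-fold). Genes of presynaptic release had 4 of 20 called lower (median -0.38), with Syt1, the calcium sensor of vesicle fusion, at 1590 and 762 CPM (0.480-fold).

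Among 23 monoamine and acetylcholine genes, 6 were called lower and 2 higher, with a median of -0.51. The lower ones were receptor genes, apart from Slc5a7, the choline transporter (0.504-fold, and 0.710-fold and not called without the trend), and the higher ones encode enzymes of synthesis. Htr2a, a serotonin receptor, had 14.2 and 4.82 CPM (0.340-fold, 0.275 to 0.418), and Chrm2, a muscarinic receptor, 9.47 and 3.6 CPM (0.380-fold). Both met the 5 CPM bound only through their 12-month level, which leans the list's counts and median toward lower. Tph2, which makes serotonin in raphe neurons (chromosome 10, 115078641 to 115185022), had 5.30 and 15.7 CPM (2.96-fold, 2.38 to 3.72), and Th, which makes dopamine and noradrenaline, 24.0 and 43.9 CPM (1.83-fold). Tph2 kept its value without the trend (2.88-fold), while Th was then not called (1.31-fold). Tph2 was also called higher in the libraries labelled Csa-/- (12.4 and 24.5 CPM, 1.97-fold). At 45 days it stood at 19.2 CPM in wild type, above its 24-month level, and at 16.9 CPM in the libraries labelled Csa-/-. The dopamine transporter gene Slc6a3 was not called (11.3 and 9.60 CPM).

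Several groups of immune genes held more calls of higher than of lower at 24 months. All 12 antigen presentation genes at 5 CPM lay above 1-fold, 7 were called higher and none lower, and the median log2 fold was 1.17. Cd74, the invariant chain of class II molecules, stood at 4.55 CPM at 12 months and 15.5 CPM at 24 months (3.41-fold, 2.7 to 4.35, and 2.16-fold without the trend). The class II genes H2-Aa (6.42 and 14.0 CPM, 2.18-fold), H2-Ab1 (2.33-fold) and H2-Eb1 (2.56-fold) were called higher too, the last pair not without the trend (1.69 and 1.76-fold). The class I genes H2-D1 (14.3 and 36.4 CPM, 2.54-fold) and H2-K1 (19.6 and 48.0 CPM, 2.44-fold) are similar in sequence and may share some reads, so their separate values are uncertain. B2m, the light chain of class I, was not called (55.7 and 73.5 CPM, 1.32-fold). Without the length and GC trend, 4 were called higher and the median was 0.79. Cd74, H2-Eb1 and H2-T23 met the 5 CPM bound only through their 24-month level, which leans the list's counts and median toward higher.

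Of 17 interferon-response genes, 5 were called higher and none lower, with a median of 0.62, and of 0.56 without the trend. Bst2, which tethers budding viruses, had 1.60 and 8.99 CPM (5.60-fold, 3.83 to 8.47, and 2.97-fold without the trend), Rtp4 2.25 and 8.29 CPM (3.69-fold), and Ifi27 16.0 and 57.5 CPM (3.6-fold). All 3 were called without the trend as well. Bst2 and Rtp4, and Ifitm3 of the same list (3.69 and 7.51 CPM), met the 5 CPM bound only through their 24-month level. That leans the list's counts and median toward higher. Interferon-response genes had a like median in the libraries labelled Csa-/- (0.60, with 6 called higher), although Bst2 (0.978-fold) and Ifi27 (0.872-fold) were not among them and Ifitm3 was (1.96-fold). Whether the genotypes differed was not tested. Inflammation genes had 1 of 15 called higher and 1 lower, with a median of 0.10. Of 22 listed lymphocyte and immunoglobulin genes, 1 reached 5 CPM, the helper T cell marker Cd4, which was called lower (17.9 and 9.06 CPM, 0.505-fold, and 0.480-fold without the trend). The summed level of the list was 23.3 CPM at 12 months and 18.0 CPM at 24 months.

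Microglial genes moved unevenly. Of 14 activated microglia genes, 6 were called higher and none lower (median 0.61, and 0.42 with 3 called without the trend). Tyrobp, the signalling adaptor of TREM2, had 5.51 and 22.9 CPM (4.16-fold, and 2.15-fold without the trend). Lyz2, a lysozyme, had 10.4 and 33.1 CPM (3.19-fold), and Gpnmb, a lysosomal membrane protein, 2.57 and 5.83 CPM (2.27-fold, 1.64 to 3.19). Gpnmb was 0.665 CPM at 45 days, so its 3 wild-type levels were in the order of age. It was also higher in the libraries labelled Csa-/- (8.14 and 29.2 CPM, 3.59-fold). Of 14 homeostatic microglia genes, Aif1 (1.39 and 6.87 CPM, 4.94-fold) and Tmem119 (1.82-fold) were called higher and the receptor gene P2ry12 lower (38.3 and 17.8 CPM, 0.465-fold), with a median of -0.22. P2ry12 was called lower without the trend too (0.539-fold), and Tmem119 was not called (1.27-fold).

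Complement genes had 5 of 9 called higher and none lower, with a median log2 fold of 0.88. The subunits of C1q, which start the classical pathway, had 24.6 and 45.2 CPM for C1qa, 35.9 and 88.2 CPM for C1qb, and 28.1 and 54.1 CPM for C1qc (1.84, 2.46 and 1.92-fold). These are short genes, and without the length and GC trend none of the 3 was called (1.00, 1.36 and 1.27-fold), and the list's median was 0.14. C4b, a later component whose reads may be shared with its paralog C4a, remained called (39.0 and 80.7 CPM, 2.07-fold, and 1.90-fold without the trend). Its level at 45 days was 18.9 CPM. Among reactive astrocyte genes, Vim (30.4 and 68.9 CPM, 2.27-fold), Gfap (190.1 and 329.5 CPM, 1.73-fold) and Serping1 (1.86-fold) were called higher and Osmr lower (0.469-fold), out of 13. Without the trend Vim was called (2.16-fold), and Gfap (1.55-fold), Serping1 (1.39-fold) and Osmr (0.655-fold) were not. Of 18 myelin and oligodendrocyte genes, Mbp was called higher (3916 and 6979 CPM, 1.78-fold) and Tspan2 lower (0.604-fold, and 0.722-fold and not called without the trend).

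**Figure D3:**
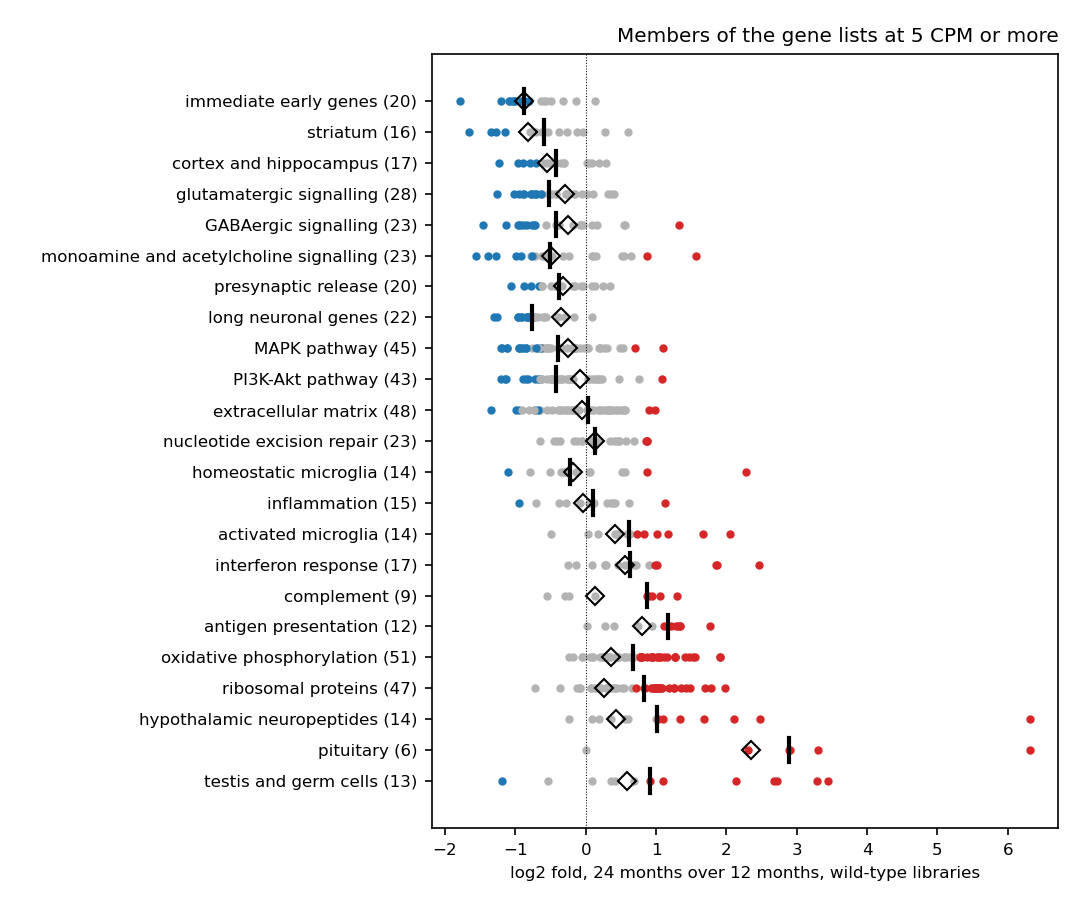
Members of 23 gene lists with at least 5 CPM, plotted by log2 fold (24 over 12 months, wild-type libraries), with the number of members in brackets. Red and blue points were called higher and lower and grey points were not called, black bars are medians, and open diamonds are medians with the length and GC trend removed. Immediate early genes have both medians near -0.88, while complement moves from 0.88 to 0.14.

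Among genes of energy production and of the ribosome, most of them short, many were called higher and none lower. Of 51 oxidative phosphorylation genes, 26 were called higher and none lower, with a median log2 fold of 0.67, and without the trend 10 were higher and 1 lower (median 0.36). Cox6b1, a subunit of cytochrome c oxidase, had 19.8 and 74.0 CPM (3.75-fold, and 2.08-fold without the trend). Ndufs6, a subunit of complex I, had 4.12 and 15.5 CPM (3.77-fold, and 2.17-fold without it), and Uqcrq, a subunit of complex III, 16.8 and 49.5 CPM (2.95-fold). All 3 were called the opposite way in the libraries labelled Csa-/- (0.359, 0.535 and 0.524-fold). There 4 of the 51 genes were called lower and none higher, with a median log2 fold of -0.11, while 3.25% of all genes were called lower. Ribosomal protein genes had 25 of 47 called higher and none lower (median 0.83), and 9 higher and 3 lower without the trend (median 0.26). Rps16 had 6.21 and 24.5 CPM (3.95-fold, and 2.53-fold without the trend), but pseudogenes of this family can take or lend reads, and all its values are uncertain. Rpl27 rested on 1 run, with runs spanning 1.37 to 17.9 CPM at 24 months, and its log2 fold of 1.78 became 0.76 without replicate 2.

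Antioxidant and iron genes had 11 of 26 called higher and 1 lower, Sod2 (190.2 and 110.2 CPM, 0.579-fold, and 0.718-fold without the trend), which encodes the mitochondrial superoxide dismutase. Fth1, the ferritin heavy chain that stores iron, had 615 and 1538 CPM (2.50-fold, and 2.26-fold without the trend). Gpx1, a glutathione peroxidase, had a fold of 2.76, and the metallothionein genes Mt3 and Mt2 had 2.73 and 1.85. None of these last 3 was called without the trend (1.66, 1.49 and 0.950-fold). With that step 3 of the list were called higher and none lower, and the median went from 0.40 to 0.20.

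Of the pathways in the series title, MAPK and PI3K-Akt genes held more calls of lower than of higher, and extracellular matrix genes had a median near that of all genes. Of 45 MAPK genes, 13 were called lower and 2 higher, with a median log2 fold of -0.40. Rasgrp1, which activates Ras in neurons, had 582 and 269 CPM (0.462-fold), and Rps6ka3, the kinase RSK2, 80.7 and 37.0 CPM (0.459-fold). Braf (0.518-fold) and Sos1 (0.611-fold) were lower too, and Mapk12, which encodes p38 gamma, was higher (2.14-fold). Without the trend 3 were lower and 1 higher (median -0.25), with Rasgrp1 among them (0.504-fold), while Rps6ka3 (0.645-fold), Braf (0.825-fold) and Sos1 (0.898-fold) were not called. Of 43 PI3K-Akt genes, 8 were lower and 1 higher (median -0.42), and 3 were lower without the trend (median -0.08). Bad, a cell death gene, was 2.13-fold higher, and not called without the trend (1.53-fold). Among 48 extracellular matrix genes 5 were lower and 2 higher (median 0.03), and 2 lower and 4 higher without the trend. Tnr, a protein of perineuronal nets, had 69.8 and 27.6 CPM (0.395-fold, 0.50-fold without the trend), and Hapln1, a link protein of the same nets, 0.501-fold (0.697-fold and not called without the trend). Col1a2, a fibrillar collagen, was higher (9.10 and 18.0 CPM, 1.98-fold), and its 45-day level was 28.6 CPM.

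Endothelial and circadian clock genes had some members called lower and none higher. Of 20 endothelial genes, 5 were called lower and none higher (median -0.13), among them the transporter gene Slco1a4 (0.50-fold) and the junction gene Tjp1 (0.528-fold), and without the trend none was called (0.714 and 0.650-fold for these), while the list's median was -0.33. Abcc9, a potassium channel subunit of pericytes, was 0.317-fold (12.1 and 3.84 CPM). Its list of 15 mural cell and fibroblast genes had 2 called lower and 1 higher, with a median of 0.01. Without the trend 1 was lower and 2 higher (median -0.29). Kcnj8 (log2 fold 0.23) and Pdgfrb (-0.15) of that list were not called. Of 19 circadian clock genes, 4 were called lower and 17 lay below 1-fold (median -0.32). Per1, a repressor of the clock that is also induced by activity, had 166 and 101 CPM (0.608-fold, and 0.536-fold without the trend), and Clock 158 and 81.2 CPM (0.514-fold, and 0.818-fold without the trend, where it was not called). Nucleotide excision repair genes had 3 of 23 called higher, Gtf2h3 (1.82-fold), Gtf2h4 (1.83-fold) and Lig1 (1.83-fold), and none lower, with a median of 0.13. Without the trend Gtf2h4 (1.48-fold) and Lig1 (1.66-fold) were not called. Ercc8 itself stood at 11.3 CPM at 12 months and 12.4 CPM at 24 months (1.09-fold, 0.920 to 1.30).

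Markers of tissues outside or at the edge of the brain had some of the largest folds in the table. Pituitary hormone genes were higher at 24 months, with 5 of 6 members at 5 CPM called higher and a median log2 fold of 2.89. Pomc and Fshb met the 5 CPM bound only through their 24-month level, which leans these values toward higher. Pomc (chromosome 12, 3954951 to 3960642), the precursor of corticotropin, had 8 counts (0.428 CPM) at 12 months and 1074 counts (36.2 CPM) at 24 months, a fold of 84.5 (95% counting interval 42.7 to 196), or 49.0 without the length and GC trend. Growth hormone, Gh, had 173 and 1705 CPM (9.87-fold, and 5.19-fold without the trend), prolactin, Prl, 42.2 and 209 CPM (4.96-fold), and Cga, the shared subunit of glycoprotein hormones, 7.12 and 52.7 CPM (7.41-fold). The summed level of all 13 listed pituitary markers was 748.1 CPM at 45 days, 230.5 CPM at 12 months and 2026 CPM at 24 months in wild type, and 1952 and 895.1 CPM at 12 and 24 months in the libraries labelled Csa-/-. How much pituitary stayed with each brain at dissection was not stated, and its part in these values was not tested.

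Some hypothalamic neuropeptide genes were called higher too. Of 14 members, 7 were called higher and none lower (median 1.01), and 4 without the trend (median 0.42), Pomc being in both lists. Avp, vasopressin, had 1.5 and 8.49 CPM (5.66-fold, 3.05-fold without the trend), Oxt, oxytocin, 3.10 and 13.5 CPM (4.36-fold, 2.08-fold), and Trh, thyrotropin-releasing hormone, 6.26 and 20.1 CPM (3.22-fold, 1.99-fold). Npy had 40.8 and 83.5 CPM (2.04-fold), but was not called without the trend (1.05-fold). The lateral hypothalamic genes Hcrt (2.84 and 5.69 CPM, 2.01-fold, and 1.02-fold without the trend) and Pmch (41.6 and 53.2 CPM, 1.28-fold) were not called. Ttr, the carrier of thyroid hormone made by choroid plexus, had 179 and 478 CPM (2.67-fold), while the choroid plexus list had 2 called higher, 1 lower and a median of -0.07 over 13 genes.

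Some genes of sperm development were also called higher. Of 26 listed testis genes 13 reached 5 CPM, 7 of them called higher and 1 lower (median 0.92, and 0.58 with 5 higher without the trend). Ldhc, the lactate dehydrogenase of sperm, had 0.642 and 7.24 CPM (11.3-fold, 6.32 to 22.2), Smcp, a sperm mitochondrial protein, 0.535 and 5.49 CPM (10.3-fold, 6.67-fold without the trend), and Tnp2, which packs sperm DNA, 2.46 and 16.3 CPM (6.62-fold, 3.15-fold without the trend). Ldhc, Smcp and Tnp2 met the 5 CPM bound only through their 24-month level, which leans the list's counts and median toward higher. At 45 days the same genes had 1.28, 0.332 and 0.760 CPM. In the libraries labelled Csa-/- at 24 months Ldhc had 0.0266 CPM, Smcp no count and Tnp2 0.133 CPM, where 3 counts are 0.0799 CPM. The source of these transcripts was not tested.

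**Figure D4:**
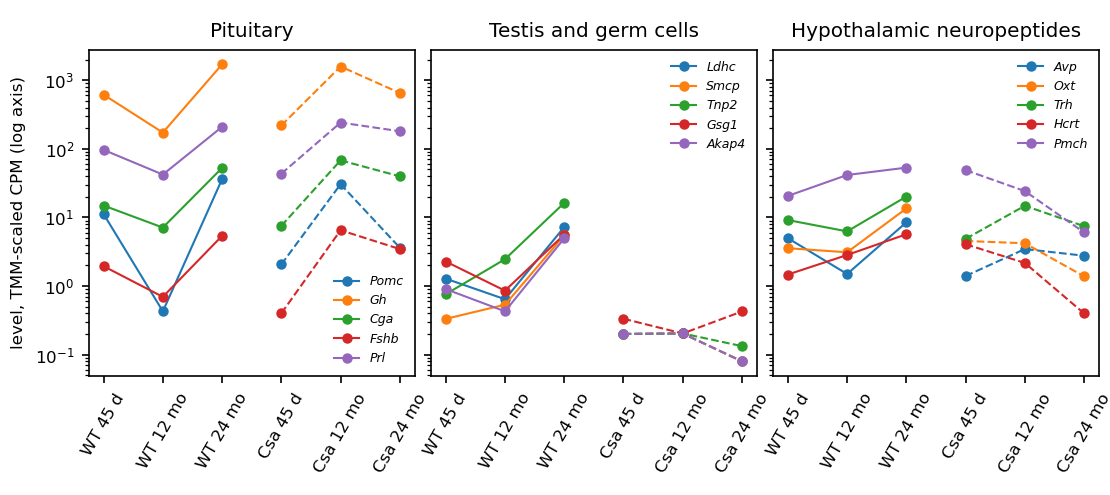
Levels of pituitary, testis and hypothalamic marker genes in all 6 libraries, as TMM-scaled CPM on a log axis, with levels under 3 counts drawn at the level of 3 counts. Solid lines join the wild-type libraries and dashed lines those labelled Csa-/-. Gh goes from 173 to 1705 CPM between 12 and 24 months in wild type and from 1586 to 652 CPM in the libraries labelled Csa-/-.

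Beyond the lists, the genes with the lowest folds were of mixed function. Ccl28, a chemokine of mucosal surfaces (chromosome 13, 119623819 to 119654359), had 9.90 CPM at 12 months and 1.38 CPM at 24 months (0.140-fold, 0.0969 to 0.197). Gucy1a2, a subunit of the nitric oxide receptor, had 156 and 46.7 CPM (0.30-fold), St6gal2, a sialyltransferase, 77.8 and 24.4 CPM (0.314-fold) and the growth factor gene Bmp3 31.1 and 9.80 CPM (0.315-fold). All 4 were called lower without the trend as well. Among the 5 largest losses in CPM were those of Slc1a2, the glutamate transporter of astrocytes (2178 and 1193 CPM, 0.548-fold, and 0.732-fold and not called without the trend), Prkcb, a protein kinase C (1660 and 794 CPM), and Syt1. Among the 5 largest gains were those of Rn45s, the ribosomal RNA precursor (1106 and 5766 CPM), Mbp, Gh and the protease inhibitor gene Cst3 (615 and 1618 CPM, 2.63-fold, and 1.55-fold without the trend). Rn45s had no length in the annotation used, so it has no value without the trend. The level of ribosomal RNA after poly(A) selection moved with the age comparison, and in the libraries labelled Csa-/- it moved the other way (9671 and 1981 CPM).

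The 45-day wild-type library lay between the other two for most called genes. Of the 1047 genes called higher at 24 months, 905 (86.4%) had a 45-day level between those of 12 and 24 months, and so had 1121 (90.0%) of the 1246 called lower. Only 84 of the genes called higher and 79 of those called lower had 3 levels in the order of age. These genes were chosen by the difference between the 12- and 24-month libraries, so the shares are a description. The order of age was found for 3 of the 5 complement genes called, 2 of the 6 activated microglia genes, 2 of the 5 interferon-response genes and 2 of the 26 oxidative phosphorylation genes. It was also found for 3 of the 7 testis genes called higher. Among genes called lower it was found for 2 of 3 protocadherin, 2 of 5 endothelial and 2 of 5 extracellular matrix genes. No margin was set, so near ties counted, as for Rtp4 (2.14 CPM at 45 days and 2.25 CPM at 12 months).

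In the libraries labelled Csa-/-, genes called in wild type were more often called the opposite way than the same way. The 2 comparisons share no library. Of 977 genes called higher in wild type and at 5 CPM in both comparisons, 8 (0.819%) were called higher there and 202 (20.7%) lower, while 1.81% and 3.03% of all 12198 genes were called higher and lower. Of 1234 genes called lower in wild type, 1 (0.0810%) was lower there and 76 (6.16%) were higher. With the trend removed in both comparisons, 57 of 420 genes called higher in wild type (13.6%) and 43 of 498 called lower (8.63%) were called the opposite way, and 4 and 1 the same way. Pomc was one of the genes called opposite ways, with 30.5 CPM at 12 months and 3.62 CPM at 24 months in the libraries labelled Csa-/-. The Pearson correlation of the log2 folds across these genes was -0.56, and -0.45 over 12047 of them once the length and GC trend of each library was taken out. Each genotype contributed 1 library per age, so an effect of genotype, an exchange of labels and a difference between single libraries cannot be told apart.

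**Figure D5:**
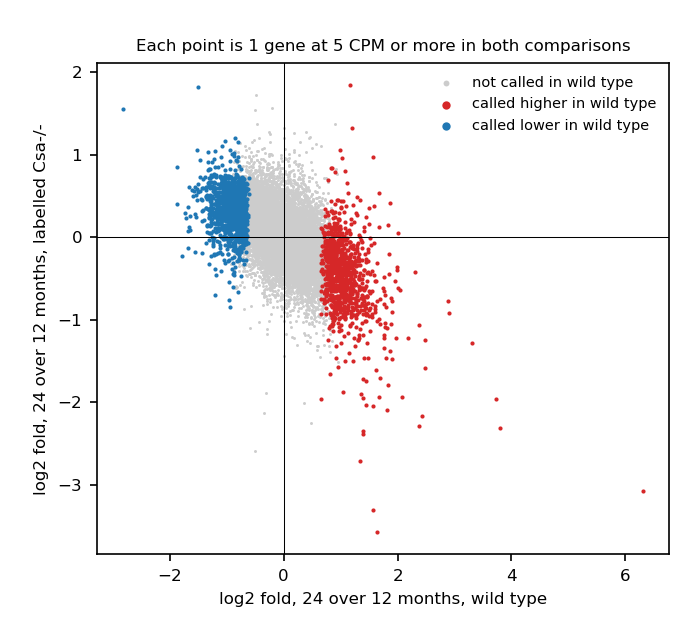
Log2 fold between 24 and 12 months in wild type (horizontal) and in the libraries labelled Csa-/- (vertical), with 1 point per gene at 5 CPM in both comparisons. Red points were called higher and blue points lower in wild type, and 202 of the 977 red genes were called lower in the libraries labelled Csa-/-.

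A test over both genotypes asked which genes differed between 24 and 12 months in the same way. The edgeR quasi-likelihood model held age and genotype over 6 libraries, with 2 residual degrees of freedom. It called 1 of 16560 genes higher (0.00604%) and 0 lower (0%) after Benjamini-Hochberg adjustment, and 170 had an unadjusted p under 0.05, of which 143 were higher. The gene was Bpifa1, a secreted protein of airway epithelium (log2 fold change 3.96 ± 0.76, SE, edgeR adjusted p = 0.0183, 2 libraries per age). Its mean of 1.41 CPM lay under the bound for named genes, and it was named after its value was seen. Bpifa1 had no count in wild type at 12 months and 4.51 CPM at 24 months, at least 28.1-fold higher against a floor of 3 counts in the 12-month library. Its exact 95% counting interval, which also covers the 24-month count, began at 22.6-fold. DESeq2 called no gene (81 at an unadjusted p under 0.05) and limma-voom none (139). On simulated counts the edgeR test called 17 of 100 genes with a true 2-fold difference. So few calls do not show that few genes differed. Gpnmb was higher in both genotypes but did not pass (1.55 ± 0.43, SE, edgeR adjusted p = 0.988), nor did Tph2 (1.23 ± 0.40, edgeR adjusted p = 1.00). Without the 24-month library labelled Csa-/- the test called 24 genes higher and 2 lower, and without the 24-month wild-type library 3 higher and 11 lower. Each of these fits had 1 library at 24 months and 1 residual degree of freedom, and took that library to vary like the others.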

How the data were processed

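The labels describe poly(A) RNA of whole brain, each sample sequenced 5 times on an AB SOLiD system in a paired format of 75 bases. Trimmomatic 0.3.9, HISAT2 2.2.1, SAMtools, Subread 2.0.1 and mm10 are named in the submitters' processing notes, with no role given. The annotation and the use of strand in counting are not given in the sources used here, so overlapping genes may share reads. The deposited values are raw counts of reads per gene, made by the authors, for 25239 genes in 30 columns, of which 3431 genes had no count.

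Runs were summed because their median chi-square ratio was under 2. Library totals of all 6 groups ran from 14598535 to 37712210 counts, so a floor of 3 counts was 0.0799 to 0.204 CPM. TMM scaling (edgeR 4.0.16, R 4.3.3) used all 6 libraries. Intervals are Clopper-Pearson and cover counting error only. They and the other statistics were tested on simulated data. There the test over both genotypes called 17 of 100 genes with a true 2-fold difference and 92 of 100 with a true 4-fold one. The length and GC trend was a spline with 5 degrees of freedom per term, fitted in each library on genes with at least 1 CPM, and lengths came from GENCODE M21 (24362 symbols matched, mm10). Alternatives also used DESeq2 1.42.0 and limma 3.58.1. The test over both genotypes used filterByExpr and assumed 1 spread for all libraries.

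The 48 gene lists and the members were chosen with earlier results of these data known. Named genes were Ercc8, the 10 largest called folds and the 5 largest called CPM differences in each direction, and up to 4 called members of each list, leaving out pseudogenes and models with only an identifier for a name. List members named beside them were chosen for their role. A few genes that this rule names are not reported here.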

Additional observations from a re-analysis of the deposited data

Results flagged for a closer look

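Of 164 named genes called between 24 and 12 months in wild type, 34 were called the opposite way in the libraries labelled Csa-/-, and 4 (Tph2, Gpnmb, Serping1 and Ifitm3) the same way. The opposite direction in the other genotype singled them out, and the difference itself was not tested, since each genotype had 1 library per age. Values in brackets are the fold (24 over 12 months) in the libraries labelled Csa-/- against that in wild type. Among genes higher in wild type, the pituitary genes were Pomc (0.119 against 84.5), Gh (0.411 against 9.87) and Cga (0.585 against 7.41). The genes of hypothalamus, choroid plexus and cilia were Trh (0.504 against 3.22), Ttr (0.642 against 2.67) and Foxj1 (0.502 against 2.12). Those of oxidative phosphorylation and the ribosome were Cox6b1 (0.359 against 3.75), Ndufs6 (0.535 against 3.77), Uqcrq (0.524 against 2.95), Rps16 (0.429 against 3.95), Rpl18 (0.364 against 2.79) and Rpl35 (0.481 against 3.25). Those of the stress response and protein handling were Prdx5 (0.608 against 2.69), Mt3 (0.570 against 2.73), Cryab (0.596 against 1.74) and Uchl1 (0.576 against 2.27). The remaining ones higher in wild type were Baiap2l1 (0.201 against 14.2), Snord15b (0.258 against 13.8), Rn45s (0.205 against 5.21), Mbp (0.636 against 1.78) and Cst3 (0.594 against 2.63). Among genes lower in wild type, the neuronal ones reported here were Syt1 (1.62 against 0.480), Mef2c (1.93 against 0.427), Ppp3ca (1.65 against 0.582) and Gpm6a (1.64 against 0.653). The glial and vascular ones were P2ry12 (1.96 against 0.465), Osmr (2.16 against 0.469), Lhfpl3 (2.07 against 0.519) and Slco1a4 (1.67 against 0.50). The remaining ones lower in wild type were Dusp1 (2.07 against 0.432), Ccl28 (2.98 against 0.140), Fam8a1 (1.80 against 0.273) and Npc1 (1.62 against 0.473).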

How the results depend on the processing

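With 1 library per age in wild type, no alternative could add replicates, and a library of another animal may differ more than the intervals show. Against 1047 genes higher and 1246 lower, the counts were 1601 higher without a minimum level, 693 higher with at least 20 CPM, and 271 higher and 194 lower beyond 2-fold. They were 454 higher and 510 lower with the length and GC trend removed, and 768 lower with library totals alone. Leaving out 1 run in each group gave 969 to 1011 higher and 1164 to 1243 lower. Of the named genes, 84 of the 164 called had the same call without the trend, and Mt2 alone changed sign (log2 fold 0.89, and -0.0743 without the trend). Removing 10 genes with most counts or using DESeq2 size factors left both counts within 1.5 times.

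The test over both genotypes called 1 gene higher and 0 lower (170 at an unadjusted p under 0.05). DESeq2, limma-voom, a mean of at least 5 CPM and the trend removed each called 0 higher, and no low-count filter gave 2 higher and 1 lower. Leaving out 1 library gave 0 to 24 higher and 0 to 11 lower. The causes were not tested. No paired analysis was possible because the 5 numbered columns of a group were repeat runs of 1 library and were summed.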

Other observations

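Small nucleolar RNAs, a group chosen after its values were seen, were higher at 24 months. These RNAs guide the modification of ribosomal RNA and lie in introns of other genes, so reads of a host gene may be counted in them. Of 33 at 5 CPM, 29 were called higher and none lower, with a median log2 fold of 1.40 and folds from 0.790 to 13.8. With the length and GC trend removed, 8 were called higher and the median was 0.52. In the libraries labelled Csa-/- the median between the same ages was -1.58. Snord49a had 216.7 CPM at 12 months and 568 CPM at 24 months (2.62-fold), and Snord32a 17.4 and 97.4 CPM (5.58-fold). Gas5, the host gene of Snord47 in this group, had 66.1 and 149.9 CPM (2.27-fold).

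A few genes went against the trend with length, and they too were chosen after their values were seen. Of 1228 genes in the longest 10%, 4 were called higher, namely Neat1, Col1a2, Lars2 and Myo15. Neat1, a long noncoding RNA that builds nuclear paraspeckles, had 186.6 CPM at 12 months and 432.3 CPM at 24 months (2.32-fold, 95% counting interval 2.23 to 2.41), with 162.3 CPM at 45 days. Among the 15 genes called lower in the shortest 10% were Arf6, a small GTPase of membrane traffic (52.2 and 30.5 CPM, 0.585-fold), Sstr4, a somatostatin receptor (8.29 and 3.74 CPM, 0.451-fold), and the potassium channel gene Kcna3 (7.54 and 3.84 CPM, 0.509-fold).

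Baiap2l1, which encodes an adaptor protein of the actin cytoskeleton, had the second largest fold higher in wild type. Its levels at 45 days, 12 months and 24 months were 2.23, 1.07 and 15.2 CPM in wild type. The libraries labelled Csa-/- had 1.33, 12.2 and 2.45 CPM. Pomc had 11.2, 0.428 and 36.2 CPM, and 2.07, 30.5 and 3.62 CPM, in the same order.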
